A study of Rattus norvegicus with 6 samples.

Results

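The genes described here are 10 genes of prostaglandin and lipoxygenase metabolism: the cyclooxygenases Ptgs1 and Ptgs2, the synthases Ptges and Ptgds, the prostaglandin E2 receptors Ptger1, Ptger2, Ptger3 and Ptger4, the prostaglandin dehydrogenase Hpgd and the lipoxygenase Alox15. They were found by name among the 35561 different gene names and identifiers of a rat oligonucleotide array, where they had 11 of 41012 non-control probes, and all 11 were among the 30934 probes kept after a filter on dim signals. Ptgs2 had 2 probes and each other gene 1. The set was chosen by gene family and in part by measured values, namely the low ratio of Ptgs2 in Cy/+ kidneys and the lower level of Alox15 at 7 days than at 3 days, so those values are described without a test.

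The kidneys came from Han:SPRD rats, a strain that carries the Cy mutation and develops polycystic kidneys. On each of 6 arrays with 2 colours, Cy5-labelled total RNA from a pool of heterozygous (Cy/+), homozygous (Cy/Cy) or wild-type (+/+) kidneys was hybridised against a Cy3-labelled +/+ pool of the same age. Each genotype had 1 array at 3 days and 1 at 7 days, which makes n = 2 for a genotype, and no dyes were swapped. Neither the number of rats in a pool nor whether pools were separate is stated, so a p-value covers the spread among these hybridisations alone, which may be technical. The 2 arrays of a genotype differ in age, so in tests against the reference this spread also holds any difference between ages and slides. The 3-day arrays lay on 1 slide and the 7-day arrays on another, so age and slide cannot be told apart, and the same holds for genotype and position on the slide. All values below are log2 ratios of Cy5 to Cy3 unless they are called levels, and a ratio of -1 means that the Cy5 pool had 1/2 of the reference signal.

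Cyclooxygenases turn arachidonic acid into prostaglandin H2, from which terminal synthases make the single prostanoids. Prostaglandin E2 is the main one in the kidney, where it acts through 4 receptors on tubule transport and vessels before the dehydrogenase inactivates it. In the rodent kidney Ptgs2 is known from the macula densa and the thick ascending limb, and mice without it form immature nephrons after birth. Lipoxygenases such as Alox15 oxidise the same fatty acid to hydroxy acids.

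The probes of 3 genes carry most of what follows, and their sequences show what was hybridised. All are given 5′ to 3′ as deposited, and positions are on build rn3. Of the bright Ptgs2 probe the first 30 bases are shown and of the others the whole probe of 60 bases. The second Ptgs2 probe and the Ptgds probe span 185 and 470 bases of the genome, more than their own length, as probes across an exon junction do, whereas the Alox15 probe lies within 60 contiguous bases.
Ptgs2, bright probe (chr13:64448537-64448596, plus strand): cattcttgtcctgaagaattgctttcttat
Ptgs2, dim probe (chr13:64444979-64445163, plus strand): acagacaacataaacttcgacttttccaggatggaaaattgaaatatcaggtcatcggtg
Ptgds (chr3:3633310-3633779, minus strand): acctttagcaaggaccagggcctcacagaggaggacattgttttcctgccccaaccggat
Alox15 (chr10:57199825-57199884, minus strand): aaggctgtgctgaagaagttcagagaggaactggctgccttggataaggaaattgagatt
The longest run of bases that any pair of the 11 probes shares is 9, and no probe of another name carried the accession of one of these genes. The bright Ptgs2 probe and the Ptgs1 probe were each spotted 10 times on every array, which gives the ratio of these genes a spread within the array. On the 3-day Cy/Cy array 1 of the Ptgs1 spots was left out for an outlier mark. The remaining 9 probes had 1 spot each.

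The arrays carried 43379 non-control spots, of which 66.8% to 74.8% were well above background in Cy5 and 65.0% to 70.0% in Cy3. The arrays labelled +/+ went against their label. By it they compare a +/+ pool with a +/+ pool, yet 18.6% of probes at 3 days and 14.7% at 7 days were 2-fold or more apart in the 2 channels, against 0.912% and 0.388% on the Cy/+ arrays and 0.0938% and 0.0582% on the Cy/Cy arrays. Markers of liver (6 of 6 at each age), skin (4 of 4) and adipose tissue (5 of 5) were at least 2-fold high in Cy5 there, and 5 of 5 markers of the thick ascending limb at least 2-fold low. For this reason they are named by their label alone, and whether a difference from them is one from wild-type kidney depends on the label being right. The 3-day Cy/+ array also carried adipose and skin transcripts, with ratios of 0.74 to 3.04 over 5 adipose markers and of 0.63 to 2.06 over 4 skin markers, against 0.13 to 1.28 and 0.084 to 0.36 on the 3-day Cy/Cy array. At 7 days the adipose markers ranged from -0.12 to 0.52 in Cy/+ and from 0.11 to 0.97 in Cy/Cy. The part of these transcripts in the results was not tested.

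Ptgs2 had the lowest single ratio of the 10 genes on the mutant arrays. The inducible cyclooxygenase gave -2.08 at 3 days and -0.89 at 7 days in Cy/+ kidneys, and -0.77 and 0.11 in Cy/Cy kidneys, relative to the +/+ reference of each array. The Cy/+ pools were thus 4.23-fold and 1.85-fold below the reference, and the Cy/Cy pools 1.70-fold below it at 3 days and 1.08-fold above it at 7 days. At each age the order of the 3 kidney pools was Cy/+ lowest and Cy/Cy above it, with the reference on top at 3 days and Cy/Cy 0.11 above the reference at 7 days. In raw brightness the mean signal on the 3-day Cy/+ array was 1060 in Cy5 and 2852 in Cy3, against local backgrounds of 49.0 and 41.9.

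The 10 replicate spots show how well the arrays measured this. Within an array the SD of the Ptgs2 spots was 0.027 to 0.038 on the 4 mutant arrays, and the spots of the arrays did not overlap. Among 30917 probes ranked by ratio on the 3-day Cy/+ array Ptgs2 was number 2 from the bottom. On the 7-day Cy/+ array it was number 72, and on the 3-day Cy/Cy array number 25. Spots of 1 probe share their RNA, so this spread covers the spotting and scanning and not the animals.

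**Figure D1:**
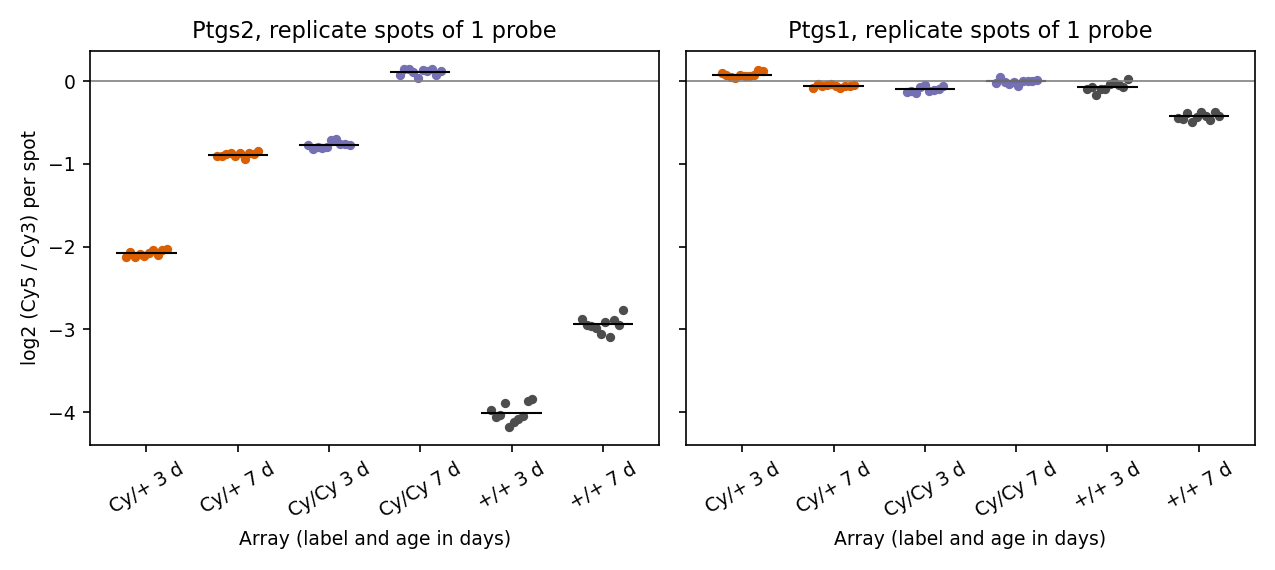
Log2 ratio of Cy5 to Cy3 (y axis) for each replicate spot of the bright Ptgs2 probe (left) and of the Ptgs1 probe (right) on the 6 arrays (x axis, label and age in days); points are spots and black bars their means. Ptgs2 spots lie near -2.08 and -0.89 on the Cy/+ arrays and near -0.77 and 0.11 on the Cy/Cy arrays, while the Ptgs1 means of these 4 arrays lie between -0.10 and 0.08.

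The second Ptgs2 probe did not show this pattern. It gave -0.25 at 3 days and -0.019 at 7 days in Cy/+ kidneys, and -0.21 and -0.17 in Cy/Cy kidneys. In Cy5 it was well above background on 2 of the 4 mutant arrays, and its signal on these 4 arrays was at most 89.5, over local backgrounds of up to 54.0. The offset of 50 added in the background correction pulls ratios of such dim spots towards 0. In the log ratios of the scanner software, which add no such offset, the same probe read -0.75 and -0.97 in Cy/+ kidneys and -1.11 and -0.46 in Cy/Cy kidneys. The 2 probes therefore disagreed in size, and in sign on the 7-day Cy/Cy array. They also disagreed in the order of Cy/+ and Cy/Cy, at 7 days with the offset and at 3 days in the software's ratios. The dim one gives no reliable value.

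Ptgs1, the constitutive cyclooxygenase, stayed near its reference. Its ratios were 0.080 and -0.054 at 3 and 7 days in Cy/+ kidneys, and -0.098 and -0.0030 in Cy/Cy kidneys. All 4 values lay within 0.10 of 0 with spot SDs of 0.019 to 0.034, and on each of these arrays Ptgs2 lay farther from its reference than Ptgs1 did.

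Both synthases lay closer to the reference than Ptgs2 on 3 of the 4 mutant arrays, and at 7 days in Cy/Cy Ptges lay farther from it. Ptges, the inducible prostaglandin E synthase that works with Ptgs2, gave -0.19 and -0.49 in Cy/+ kidneys and -0.25 and -0.26 in Cy/Cy kidneys. It lay below the reference on all 4 mutant arrays. Ptgds, the lipocalin-type prostaglandin D synthase, gave 0.27 and 0.31 in Cy/+ kidneys and -0.065 and 0.029 in Cy/Cy kidneys, so its Cy/+ values were both above its Cy/Cy values.

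The 4 receptors had small ratios. Ptger1, which signals through calcium, gave 0.23 and -0.22 in Cy/+ kidneys and -0.14 and -0.033 in Cy/Cy kidneys, so its sign in Cy/+ differed between the ages. Ptger3, which mainly lowers cyclic AMP, gave -0.24 and -0.14 in Cy/+ kidneys and -0.019 and -0.10 in Cy/Cy kidneys, below the reference on every mutant array. The receptors that raise cyclic AMP are Ptger2 and Ptger4. Ptger2 gave -0.013 and 0.025 in Cy/+ kidneys and -0.18 and 0.13 in Cy/Cy kidneys. Ptger4 gave -0.25 and 0.095 in Cy/+ kidneys and -0.070 and 0.17 in Cy/Cy kidneys. Both were below the reference at 3 days and above it at 7 days in both genotypes, and their signals were low, 128 to 192 in Cy5, where the median background of these arrays was 44 to 46.

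Hpgd, which oxidises and so inactivates prostaglandin E2, was the member farthest above the reference in Cy/Cy kidneys. Its ratios were -0.19 and 0.12 in Cy/+ kidneys and 0.19 and 0.27 in Cy/Cy kidneys. Both Cy/Cy values lay above both Cy/+ values.

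Alox15 was low in both mutants at both ages. This 12/15-lipoxygenase gave -1.04 at 3 days and -0.51 at 7 days in Cy/+ kidneys, and -0.58 and -0.27 in Cy/Cy kidneys. At 3 days the Cy/+ pool was 2.05-fold and the Cy/Cy pool 1.49-fold below the reference, and at 7 days they were 1.43-fold and 1.20-fold below it. Within each age the Cy/+ ratio was the lower, though the 7-day Cy/+ value lay above the 3-day Cy/Cy value. The ratio ranked 65 and 617 from the bottom of all kept probes in Cy/+ kidneys at 3 and 7 days, and 95 and 1056 in Cy/Cy kidneys.

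**Figure D2:**
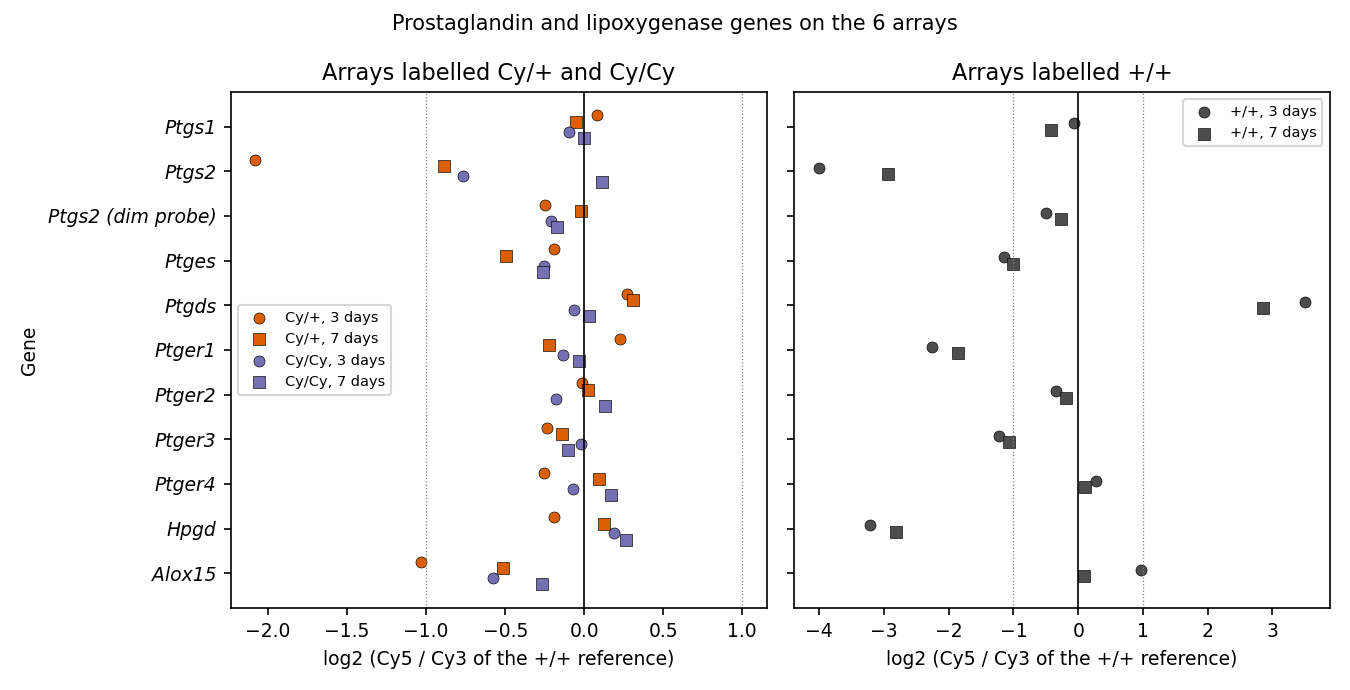
Log2 ratio of Cy5 to Cy3 (x axis) for each gene (y axis) on the Cy/+ and Cy/Cy arrays (left) and on the arrays labelled +/+ (right, with a wider scale); circles are 3 days, squares 7 days, and dotted lines mark a 2-fold difference. On the mutant arrays Ptgs2 (-2.08 to 0.11) and Alox15 (-1.04 to -0.27) reach farthest below 0, and the remaining ratios lie between -0.49 and 0.31.

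Across the members, 4 of 11 probes lay below the reference on all 4 mutant arrays (the dim Ptgs2 probe, Ptges, Ptger3 and Alox15) and 0 above it on all 4. Over all kept probes the shares were 17.5% and 20.9%. In Cy/+ kidneys 0 of 11 probes were at least 2-fold from the reference in one direction at both ages, against 0.158% of all kept probes, and the median ratio of the members was -0.078 against 0.0046 over all probes.

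The question for the Cy/Cy kidneys was whether any member differed from the +/+ reference by more than the spread between arrays. By limma, with Benjamini-Hochberg adjustment over 30932 probes, 0 of 11 members passed an adjusted p under 0.05, as did 0 of all probes (0%). The choice of genes did not use the ratio of Cy/Cy kidneys to their reference, although the Alox15 levels of these kidneys were part of the age difference for which it was chosen. Without adjustment 3 members and 2676 probes had p under 0.05. Alox15 had a mean ratio of -0.42 ± 0.14 (SE, n = 2 arrays), or 1.34-fold below the reference, with a limma p of 0.0197 and an adjusted p of 0.521. Ptges stood at -0.26 ± 0.09 (limma adjusted p = 0.539) and Hpgd at 0.23 ± 0.09 (limma adjusted p = 0.575), each in the same direction on both arrays. Ptgs2 averaged -0.33 ± 0.30 (limma adjusted p = 0.752), with a 95% interval of -1.04 to 0.38 that covers both its 3-day and its 7-day ratio. The spread is pooled over the 4 mutant arrays, so this p and interval also draw on the Cy/+ ratios for which Ptgs2 was chosen. The 2 Cy/Cy arrays went opposite ways for Ptgs2, so the mean describes neither age. The median of the members was -0.062, against 0.0054 over all probes, and the range of the members was -0.42 to 0.23.

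These values depend on the normalization within arrays. With median centring in place of loess the median of all probes moved to 0.17 in Cy/Cy kidneys and to 0.19 in Cy/+ kidneys. Relative to that median Alox15 stood at -0.18 in Cy/Cy kidneys and -0.49 in Cy/+ kidneys, Ptgs2 at -0.13 and -1.27, and Hpgd at 0.62 and 0.44. Then 42.9% of probes passed in Cy/Cy kidneys, Hpgd and the dim Ptgs2 probe among them and Alox15 not.

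Setting Cy/Cy against Cy/+ asked whether the genotypes differed from each other. On its bright probe Ptgs2 was higher in Cy/Cy than in Cy/+ by 1.31 on the log2 scale at 3 days and 1.00 at 7 days. The mean was 1.16, or 2.23-fold. The dim probe did not show this, with differences of 0.032 and -0.15 (mean -0.061). The bright one was 1 of 9 probes at least 2-fold apart in one direction at both ages (0.0291% of all kept probes). That follows from the low Cy/+ values on which Ptgs2 was chosen, and it is given without a test. Of the remaining members 0 passed limma's adjusted p of 0.05, as did 0 of 30927 probes (0%), while 914 probes had an unadjusted p under 0.05. Hpgd was 0.26 ± 0.13 higher (SE, 95% interval -0.075 to 0.60), Alox15 0.35 ± 0.35 higher (-0.53 to 1.24) and Ptgds lower by a log2 difference of -0.31 ± 0.21 (-0.84 to 0.23), each with a limma adjusted p of 1. Within an age Alox15 was higher in Cy/Cy by 0.46 at 3 days and 0.25 at 7 days. Without the 3-day Cy/+ array its fitted difference turned to -0.054. The age term of that fit rests on the Cy/Cy arrays and the arrays labelled +/+. In the alternatives tried the mean Ptgs2 difference was between 1.03 and 1.28 on the bright probe and between -0.16 and 0.076 on the dim one. These ranges describe values that draw on the choice of Ptgs2 and do not test it.

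Against the arrays labelled +/+, the Cy/Cy arrays differed in most members. Ptgs2 had ratios of -0.77 and 0.11 on the Cy/Cy arrays, against -4.01 and -2.94 on the arrays labelled +/+, and Hpgd 0.19 and 0.27 against -3.21 and -2.81. Their fitted differences were 3.15 ± 0.13 (SE, n = 2 arrays each, limma adjusted p = 0.000125) and 3.24 ± 0.13 (limma adjusted p = 0.000121). The spread of this fit is pooled over all arrays, those of Cy/+ included. The SE and p of Ptgs2 therefore also draw on the Cy/+ ratios for which Ptgs2 was chosen. The receptors Ptger1 (-0.14 and -0.033 on the Cy/Cy arrays, against -2.26 and -1.85) and Ptger3 (-0.019 and -0.10 against -1.22 and -1.06) were higher by 1.98 ± 0.22 (limma adjusted p = 0.00247) and 1.08 ± 0.12 (limma adjusted p = 0.0028). Ptges was higher by 0.82 ± 0.15 (limma adjusted p = 0.0129).

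Ptgds went the other way. It had ratios of -0.065 and 0.029 on the Cy/Cy arrays, against 3.51 and 2.86 on the arrays labelled +/+ (difference -3.20 ± 0.21, limma adjusted p = 0.000444). Alox15 was lower by a log2 difference of -0.95 ± 0.35 and did not pass (limma adjusted p = 0.104), with ratios of 0.98 and 0.08 on the arrays labelled +/+. In all, 6 of 11 members passed, 5 higher and 1 lower, where 28.9% of all probes passed (10.6% higher and 18.4% lower). Ptgs2 is counted among them with the limit on its p given above. Ptges and Ptger3 no longer passed without the 3-day Cy/Cy array (0.86 and 0.97), and Ptges not without the 7-day one either (0.79), while Alox15 passed at -1.60 without the 7-day array labelled +/+.

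The Cy/+ arrays, which are set against the same arrays labelled +/+, gave 1.99 for Ptgs2, 2.98 for Hpgd, 2.06 for Ptger1, 0.95 for Ptger3, 0.74 for Ptges and -2.90 for Ptgds. At least 2-fold in one direction at both ages were 4 of 11 members, against 12.1% of all probes. On the arrays labelled +/+ the markers of the thick ascending limb ranged from -4.94 to -2.76 at 3 days, and 5 of 6 markers of brain and meninges were at least 2-fold high at both ages. Whether the values of Ptgs2 and Ptgds on these arrays come from the same mixture of tissues was not tested.

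Age was compared within the 3 kinds of kidney pool, as 7 days against 3 days, on levels of each dye channel scaled between arrays. Alox15 had a level (log2 signal) of 11.32 at 3 days and 10.31 at 7 days in the Cy/+ pools, 12.02 and 10.59 in the Cy/Cy pools, and 12.47 and 10.84 in the +/+ reference. The 7-day level was therefore lower by 1.01, 1.42 and 1.63, on average 2.56-fold, and all 3 pools of 3 days lay above all 3 of 7 days. In the 6 hybridisations of the +/+ reference its level was 12.35 to 12.59 at 3 days and 10.69 to 10.86 at 7 days. The hybridisations of an age share a slide. Alox15 was the 1 member at least 2-fold apart in all 3 pools, against 0.12% of all probes (0.0679% lower), a pattern for which it was chosen.

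Ptgs2 differed with age mainly in the reference. Its level was 9.42 at 3 days and 9.40 at 7 days in the Cy/+ pools, 10.71 and 10.47 in the Cy/Cy pools, and 11.49 and 10.32 in the +/+ reference. The 7-day minus 3-day difference was -0.018, -0.24 and -1.17. The mutant ratios closer to 0 at 7 days thus stood beside a lower reference and not beside a higher Cy5 level. Ptgds was lower at 7 days in all 3 pools (-0.47, -0.43 and -0.52), and every other member averaged between -0.17 and 0.17.

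**Figure D3:**
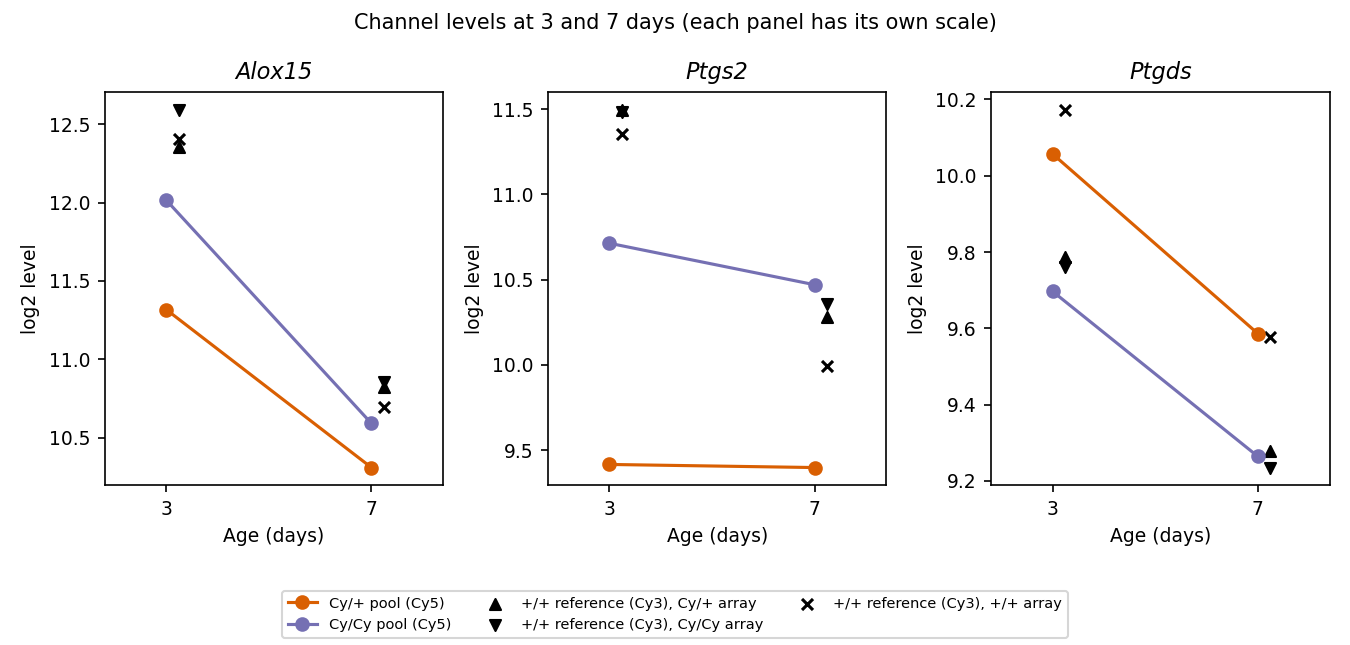
Log2 level per channel (y axis) of Alox15, Ptgs2 and Ptgds at 3 and 7 days (x axis); coloured circles are the Cy/+ and Cy/Cy pools in Cy5 and black symbols the +/+ reference in Cy3 on each of the 3 arrays of that age. Alox15 is lower at 7 days in every pool, whereas Ptgs2 differs by -0.018 in Cy/+, -0.24 in Cy/Cy and -1.17 in the reference.

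Cell type markers were read on the same arrays. Of the erythroid list 4 of 10 genes were measured. Hbb, the beta globin, gave -1.60 and -1.13 in Cy/+ kidneys and -0.83 and -0.56 in Cy/Cy kidneys. Slc4a1, the anion exchanger of red cells and intercalated cells, gave -1.20 and -0.82 in Cy/+ kidneys and -0.51 and -0.21 in Cy/Cy kidneys. Alas2, the first enzyme of haem synthesis in red cells, gave -0.58 and -0.44 in Cy/+ kidneys and -0.36 and -0.11 in Cy/Cy kidneys. These 3 genes were lower in Cy/+ than in Cy/Cy within each age. The ammonia channel gene Rhag stayed between -0.13 and 0.084. The summed linear signal of the 4 genes was 11129 in the 3-day Cy/+ pool and 16925 in the 3-day Cy/Cy pool, against 25014 and 25941 in their references, and 8852 and 12246 at 7 days, against 16425 and 16068. On the 7-day Cy/+ array 1 of the 4 was not well above background in Cy5 and 1 not in Cy3. On the 7-day Cy/Cy array 1 was not in Cy3. Of the neutrophil granule list 7 of 9 genes were measured, with medians of -0.30 and -0.31 at 3 and 7 days in Cy/+ kidneys and 0.043 and -0.47 in Cy/Cy kidneys. Its lowest ratios were those of the defensins Defa5, listed as Defa in the files (-1.77 and -0.95 in Cy/+, -0.21 and -0.77 in Cy/Cy) and RatNP-3b (-1.29 and -1.01 in Cy/+, -0.16 and -0.87 in Cy/Cy). Of the 7 genes 2 lay above the reference on the 3-day Cy/+ array (up to 0.34) and 4 on the 3-day Cy/Cy array (up to 0.18). At 7 days 0 did so in Cy/+ kidneys and 1 in Cy/Cy kidneys. The 7 summed to 1741 in the 3-day Cy/+ pool and 2470 in the 3-day Cy/Cy pool, against 2484 and 2456 in their references, and to 1876 and 1765 at 7 days, against 2598 and 2575. The part of red cells and neutrophils in the Alox15 ratios was not tested, and in whole kidney RNA fewer cells of a type and less RNA per cell cannot be told apart.

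Beside Ptgs2 stood part of the thick ascending limb list. Slc12a1, the cotransporter of the thick ascending limb, gave -0.99 and -0.43 in Cy/+ kidneys, the lowest of the list there, and -0.15 and -0.12 in Cy/Cy kidneys. Above the reference in Cy/+ kidneys lay 1 of 5 genes at 3 days (0.038) and 0 at 7 days. In Cy/Cy kidneys 1 did so at 3 days (0.22) and 2 at 7 days (up to 0.097). Over the 5 measured genes of that list the median was -0.47 and -0.18 in Cy/+ kidneys and -0.16 and -0.039 in Cy/Cy kidneys, less far from the reference than Ptgs2 at 3 days. Their summed signal was 115063 in the 3-day Cy/+ pool and 165816 in the 3-day Cy/Cy pool, against 185049 and 152517 in their references, and 122950 and 142928 at 7 days, against 144197 and 137911. The sum was thus below the reference in both Cy/+ pools and above it in both Cy/Cy pools, where the median was below it. Nos1, the marker of the macula densa itself, was not measured above background. The part of these cells in the Ptgs2 ratios was not tested.

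**Figure D4:**
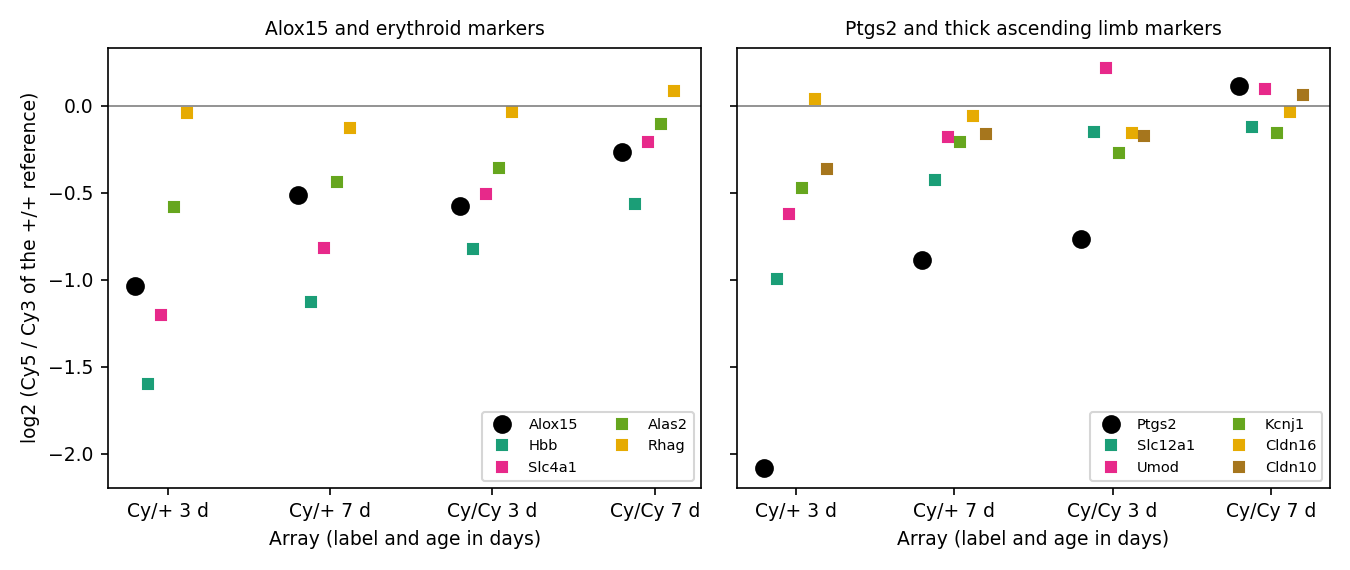
Log2 ratio of Cy5 to Cy3 (y axis) on the 4 mutant arrays (x axis) for Alox15 with 4 erythroid markers (left) and for the bright Ptgs2 probe with 5 thick ascending limb markers (right); black circles are the member and coloured squares the markers. Hbb lies below Alox15 on all 4 arrays (-1.60 to -0.56), and on the 3-day Cy/+ array Slc12a1 (-0.99) lies nearest to Ptgs2 (-2.08).

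The genes most like a member were sought over 10 channel values, the 6 reference hybridisations and the 4 mutant pools, among 1419 named probes that varied by at least 1 log2 unit. For Ptgs2 they included Gstm6, a glutathione transferase (Pearson r = 0.973), Klk1b3, a kallikrein listed under an older name (0.971), the muscle ubiquitin ligase Trim63 (0.968) and the sodium-hydrogen exchanger Slc9a2 (0.961). For Alox15 they were Alas2 (0.985), Tbc1d17 (0.985), the melanocyte antigen Mlana (0.978), the immediate early receptor Nr4a1 (0.975) and the exonuclease Isg20 (0.973). The channel values share slides, and 6 of the 10 are +/+ reference hybridisations, so these correlations describe the arrays and carry no p.

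The rest of eicosanoid metabolism was followed in 58 further genes, of which 48 were measured. Cyp4a1 and Cyp4a8 were read by 1 shared probe and count as 1. In Cy/Cy against its reference 0 passed limma's adjusted threshold and 5 of 48 had an unadjusted p under 0.05, as did 2676 of all 30932 probes. These 5 are named here after their values were seen: Cyp4f1, a fatty acid omega-hydroxylase that the files list as Cyp4f2 (0.52), Alox5, the 5-lipoxygenase (0.21), and Ggt1, which processes leukotriene C4 (0.27), lay above the reference, and Tbxas1, the thromboxane synthase (-0.21), and Cyp4f5 (-0.19) below it. None of the 48 was at least 2-fold from the reference at both ages in either mutant, where 0.158% of all probes were in Cy/+ and 0.0097% in Cy/Cy, and 0 passed in Cy/Cy against Cy/+, where 3 had an unadjusted p under 0.05. In Cy/Cy against the arrays labelled +/+ 9 of 48 were higher and 18 lower, where 10.6% and 18.4% of all probes were, with a median of -0.24.

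The lists around the members showed the following in Cy/+ and Cy/Cy kidneys. The 9 phospholipase and arachidonate release genes, which supply the substrate, had medians of 0.013 and -0.0082 at 3 and 7 days in Cy/+ and of -0.059 and 0.032 in Cy/Cy. The 5 other prostanoid receptors had medians of -0.026 and 0.067 in Cy/+ and -0.041 and -0.0061 in Cy/Cy, and the 5 transport and inactivation genes -0.12 and 0.078 in Cy/+ and 0.049 and 0.0052 in Cy/Cy. The 11 cytochrome P450 and epoxide hydrolase genes had medians of -0.23 and -0.030 in Cy/+ and -0.049 and 0.040 in Cy/Cy, and the Cy/+ value at 3 days was the farthest from 0 of any of these lists on a mutant array. The 7 further synthases had medians of -0.018 and -0.021 in Cy/+ and -0.12 and -0.057 in Cy/Cy. The 11 lipoxygenase and leukotriene genes had medians of 0.14 and 0.028 in Cy/+ and 0.16 and 0.059 in Cy/Cy. Within that list Alox15b, the second 15-lipoxygenase, gave 1.00 and 0.77 in Cy/+ kidneys and 0.16 and 0.073 in Cy/Cy kidneys, on the opposite side of the reference from Alox15. It is named after its values were seen.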

How the data were processed

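Total kidney RNA was measured on 6 arrays with 2 colours, grouped by the labels. The deposited spot signals and local backgrounds are intensity values from Agilent Feature Extraction 9.5.1.1, unnormalized, per the file headers, whereas the series text names an older version. The deposited log ratio is log10 of the software's background-subtracted, dye-normalized Cy5 over Cy3, per the file headers. The values in the authors' series table were identical to it (largest difference 0). Genome positions are on rn3, per the deposited probe coordinates.

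In R 4.3.3 with limma 3.58.1, mean signals were corrected with normexp (offset 50) and normalized by loess within arrays, with control and outlier spots at weight 0. Replicate spots were averaged. A probe was kept if either dye was well above background on 2 or more arrays. The ratios of each mutant genotype were tested against 0 in a fit of the 4 mutant arrays without an age term. Genotypes were tested against each other in a fit of all 6 with age as a term. Each fit had 2 residual degrees of freedom. P-values were adjusted by Benjamini-Hochberg over all kept probes. Comparisons that the choice of genes had used are given as ratios, with a 2-fold rule at both ages or in all 3 pools. Channel levels were scaled between arrays by Aquantile. The fits were tested on simulated data. The members, the gene lists and the 2-fold rule were chosen with earlier results of these data known. All members are named, and of further genes those that passed or were at least 2-fold in both arrays of a genotype, with exceptions stated in the text. A gene that this rule names is not reported here. The number of arrays limits the precision, and the reference pool stands as 1 control whose own spread is left out.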

Additional observations from a re-analysis of the deposited data

Results flagged for a closer look

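The receptors Ptger2 and Ptger4 lay below the reference on both 3-day mutant arrays and above it on both 7-day mutant arrays. The mean mutant ratio at 7 days minus that at 3 days was 0.17 for Ptger2 (0.079 at 7 days, -0.095 at 3 days) and 0.29 for Ptger4 (0.13 at 7 days, -0.16 at 3 days). The difference was not tested, and 9.22% of all probes with a value on every array also had opposite signs at the 2 ages.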

How the results depend on the processing

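The labels link the Cy5 pools of different genotypes by age alone, and age was a term of the fits over all arrays. For Cy/Cy against its reference, 0 members passed except with median centring (2), where 13276 probes passed in all against 0, and the ratio became 0.29 for Ptgs1, 0.035 for Ptgs2, 0.089 for Ptges, 0.27 for Ptgds, 0.19 for Ptger1, 0.14 for Ptger3, -0.056 for Ptger4 and -0.014 for Alox15. The cause was not tested. With 1 Cy/Cy array left out the ratio ranged from -0.77 to 0.11 for Ptgs2, -0.065 to 0.029 for Ptgds, -0.18 to 0.13 for Ptger2 and -0.070 to 0.17 for Ptger4. Without the 3-day Cy/+ array, an alternative chosen after seeing the data, 60 probes and 0 members passed, and other alternatives gave 0 to 3 probes. For Cy/+ against its reference the number of members at least 2-fold away was 0 to 2 when 1 array was left out (2 on the 3-day array alone, Ptgs2 and Alox15), and of all probes 49 were, against 399 with median centring, 258 with the software's log ratios, 76 with a normexp offset of 16, and 120 to 282 with 1 array left out. For Cy/Cy against Cy/+ the difference turned to 0.076 for the dim Ptgs2 probe and 0.036 for Ptger2 with the software's log ratios. With 1 array left out it ranged from -0.23 to 0.11 for Ptgs1, -0.16 to 0.034 for the dim Ptgs2 probe, -0.10 to 0.27 for Ptges, -0.44 to 0.27 for Ptger1, -0.14 to 0.081 for Ptger2, -0.025 to 0.28 for Ptger4 and -0.054 to 0.76 for Alox15. The age term of these fits rests in part on the arrays labelled +/+. Against the arrays labelled +/+ Ptger4 turned to 0.11 with the software's log ratios and ranged from -0.37 to 0.095 with 1 array left out. There 4 to 7 members and 3163 to 11517 probes passed with 1 array left out, against 6 and 8943, and with the software's log ratios 8 members passed, 55.6% of all calls were higher against 36.5%, and the median of all probes was 0.23 against -0.0062. Cy/+ against the same arrays had 6541 probes at least 2-fold away with the software's log ratios, against 3744. For age, 251 probes were at least 2-fold apart with median-scaled processed signals, 65 without the Cy/+ pool and 75 without the Cy/Cy pool, against 37, and Alox15 was the 1 member among them under each alternative. Signals near background limit the dim Ptgs2 probe, Ptger2 and Ptger4.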
